A study of Homo sapiens with 4 samples.

Results

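The data concern the LINC RNAs, long intergenic noncoding RNAs whose approved symbol begins with LINC, in PC3 and DU145 cells with and without knockdown of ESS2. They were selected on their signal, as the genes of that name with at least 1 probe well above background on all 4 arrays, and each was represented by the probe with the highest mean log2 signal. Of 1641 LINC symbols that the array could be matched to, 346 met this rule (21.1%). By its name they include LINC02210-CRHR1, which is a protein-coding readthrough transcript. PC3 and DU145 are established androgen-insensitive prostate cancer cell lines. PC3-shC and DU145-shC cells carried an shRNA against luciferase, and PC3-shESS2 and DU145-shESS2 cells carried an shRNA against ESS2, a transcriptional coregulator that is also a component of the spliceosome. All 4 populations were kept in the same medium. The methods describe the PC3 populations as puromycin-selected cells that stably expressed the shRNA, and whether clones were taken is not given in the sources used here. Each population was measured on 1 one-colour (Cy3) Agilent array, with 0.1 µg of total RNA labelled per array. Because each condition had 1 array, no test was possible within a cell line, and a difference there is a log2 ratio of 2 arrays with an estimate of the spot error only.

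LINC symbols are given by the nomenclature committee to noncoding genes that lie between protein-coding genes and lack a better functional name. Most are transcribed by RNA polymerase II, capped, spliced and polyadenylated like messenger RNAs, but they are usually less abundant and differ more between cell types. Only a few have a described role. LINC-PINT is induced by p53, LINC-ROR was described in reprogrammed stem cells, LINC00632 is the host transcript of the circular RNA CDR1-AS, and LINC00963 and LINC00844 have been studied in prostate cancer cells.

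The promoters of 6 LINC RNAs with large differences are shown first, chosen after their values were seen, to show the range of base composition from GC-rich to AT-rich. Each spans 250 bases before to 50 bases after the RefSeq start (GRCh38.p14), and capitals mark the CCAAT box on either strand. LINC01116 (chr2:176637560-176637859, minus strand) and LINC00665 (chr19:36331669-36331968, minus strand) were higher in PC3-shESS2 cells, LINC00869 (chr1:149606762-149607061, plus strand) was lower in them, and LINC01389 (chr1:47437268-47437567, minus strand) was lower in DU145-shESS2 cells. LINC01133 (chr1:159960974-159961273, plus strand) and LINC00632 (chrX:140709509-140709808, plus strand) were the 2 with the largest excess in PC3 over DU145 cells.
LINC01116: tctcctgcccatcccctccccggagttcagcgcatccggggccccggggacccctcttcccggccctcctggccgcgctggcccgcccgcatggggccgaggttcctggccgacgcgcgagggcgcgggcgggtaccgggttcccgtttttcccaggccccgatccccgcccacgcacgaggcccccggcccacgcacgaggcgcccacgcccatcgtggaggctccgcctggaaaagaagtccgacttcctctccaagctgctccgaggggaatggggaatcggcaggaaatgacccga
LINC00869: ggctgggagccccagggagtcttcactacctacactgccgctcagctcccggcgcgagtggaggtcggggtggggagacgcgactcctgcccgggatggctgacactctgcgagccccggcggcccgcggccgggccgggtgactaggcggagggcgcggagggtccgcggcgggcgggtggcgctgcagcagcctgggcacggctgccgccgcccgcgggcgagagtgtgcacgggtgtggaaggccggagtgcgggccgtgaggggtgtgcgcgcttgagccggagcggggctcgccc
LINC01389: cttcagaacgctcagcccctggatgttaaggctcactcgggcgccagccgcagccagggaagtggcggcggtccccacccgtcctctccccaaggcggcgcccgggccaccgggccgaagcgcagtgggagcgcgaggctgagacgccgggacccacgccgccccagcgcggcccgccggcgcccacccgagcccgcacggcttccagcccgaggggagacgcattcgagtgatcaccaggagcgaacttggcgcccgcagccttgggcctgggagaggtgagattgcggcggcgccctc
LINC00665: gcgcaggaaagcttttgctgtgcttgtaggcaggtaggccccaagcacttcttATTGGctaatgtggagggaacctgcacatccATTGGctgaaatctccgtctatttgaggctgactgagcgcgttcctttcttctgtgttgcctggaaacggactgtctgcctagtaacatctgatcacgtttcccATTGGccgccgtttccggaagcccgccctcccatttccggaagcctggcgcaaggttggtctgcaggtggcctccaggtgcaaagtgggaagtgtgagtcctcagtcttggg
LINC01133: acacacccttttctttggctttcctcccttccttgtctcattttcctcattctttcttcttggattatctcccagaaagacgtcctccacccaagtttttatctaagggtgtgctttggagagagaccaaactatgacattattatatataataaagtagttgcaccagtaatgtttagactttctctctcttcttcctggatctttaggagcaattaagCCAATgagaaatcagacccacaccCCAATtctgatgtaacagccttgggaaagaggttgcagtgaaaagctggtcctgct
LINC00632: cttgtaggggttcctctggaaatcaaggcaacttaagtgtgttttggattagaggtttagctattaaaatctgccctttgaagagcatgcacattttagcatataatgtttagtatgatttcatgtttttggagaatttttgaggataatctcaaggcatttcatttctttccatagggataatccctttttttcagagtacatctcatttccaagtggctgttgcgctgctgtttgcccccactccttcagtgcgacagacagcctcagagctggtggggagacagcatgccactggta
The windows of LINC01116, LINC00869 and LINC01389 were 72.7%, 77% and 74% G or C and held 11.3, 12.7 and 12 CpG dinucleotides per 100 bases. The windows of LINC01133 and LINC00632 were 41.3% and 42% G or C, with 0.333 and 0.667 CpG per 100 bases. That of LINC00665 lay between, at 55.3% G or C and 4 CpG per 100 bases. CCAAT boxes were found in the windows of LINC00665 and LINC01133 and in none of the other 4.

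The 346 LINC RNAs were a minority of their class. Another 1008 LINC symbols (61.4%) were not well above background on any array, 110 were so on 1 array, 129 on 2 and 48 on 3. Among protein-coding genes 12665 of 18582 (68.2%) were well above background on all 4 arrays. On both PC3 arrays and no DU145 array there were 72 LINC RNAs (4.39% of 1641, against 3.08% of the 25117 genes on the array), and on both DU145 arrays and no PC3 array 46 (2.80% against 3.47%). On both shESS2 arrays and no control array there were 5 (0.305% against 0.187%), and on both control arrays and no shESS2 array 2 (0.122% against 0.0717%). Detection thus followed the line more often than the knockdown, among all genes as among the LINC RNAs. The rule therefore leaves out the LINC RNAs that were present in 1 line alone.

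The selected LINC RNAs were mostly dim. Their processed signal, which is in arbitrary units and unscaled, had medians of 55.4, 61.5, 60.7 and 55.9 on the PC3-shC, PC3-shESS2, DU145-shC and DU145-shESS2 arrays, and the lowest value was 8.58. The brightest probe was that of LINC01356, at 54700, 54200, 43000 and 40700. Of the 8 brightest, LINC01122 alone was past 2-fold with the knockdown, and the others (LINC01356, LINC02138, LINC01684, LINC01001, LINC01949, LINC02601 and LINC00504) had log2 ratios from -0.23 to 0.74 in PC3 and from -0.20 to 0.09 in DU145. Of the 346, 209 lay in the lowest of 5 equal bins of mean signal over the 14709 genes well above background on all 4 arrays. Just inside the detection limit, LINC01750 read 12.3, 10.5, 13.6 and 10.4, and LINC02346 read 12.5, 14.1, 10.2 and 10.0. Just outside it, LINC00685 was dim only on the PC3-shC array (10.8, 27, 219 and 330) and LINC01982 only on the DU145-shC array (237, 353, 8.92 and 21.7).

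The knockdown and the identity of the lines were seen on the same arrays. ESS2 itself read 133 in PC3-shC and 53.6 in PC3-shESS2 cells, a log2 ratio of -1.45 after scaling, and 85.7 in DU145-shC and 17.3 in DU145-shESS2 cells, a log2 ratio of -2.35. The 4 epithelial markers EPCAM, KRT8, KRT18 and CDH1 were well above background on all 4 arrays, while CTNNA1, which is deleted in PC3, was so on the DU145 arrays alone. Of the androgen-driven kallikreins, KLK3 was dim on every array and KLK2 read 9.94 to 21.8, above background on all 4. Among markers of other cell types PTPRC and VWF gave 24.4 to 60 on all 4 arrays, PECAM1 read 338 and 16.4 on the PC3 arrays and was dim in DU145, and CD3E, DCN and COL1A2 were dim throughout. PECAM1 (-4.51 in PC3) and EPCAM (-2.61 in DU145) differed with the knockdown, and their part in the LINC RNA values was not tested.

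By the probe used, most of the LINC RNAs past 2-fold in PC3 cells were lower after ESS2 knockdown. LINC00869 read 2650 in PC3-shC and 1000 in PC3-shESS2 cells, 2.92-fold lower after scaling (log2 ratio -1.55, error 0.20). LINC01793 read 5660 and 2290 (-1.45, error 0.20), and LINC00540 read 425 and 167 (-1.49, error 0.20). The differences were over 7 times the Feature Extraction error. That error was also 0.20 for each of the 8 brightest LINC RNAs, so it is not particular to these spots. LINC00626 read 443 and 179 (-1.45), LINC03026 read 315 and 126 (-1.46), and LINC01433 read 221 and 107 (-1.19). LINC01122, among the brightest LINC RNAs, read 19900 and 9800 (-1.16), and was past 2-fold in 6 of 9 alternative settings. Another of its probes above background on all 4 arrays read 236 and 221 (-0.24). LINC01133 read 2520 and 1310 (-1.08), LINC01444 read 584 and 321, 2.01-fold lower, and LINC02453 read 126 and 66.3 (-1.07). The remaining 2 were dim, with LINC00923 at 46.9 and 18.5 (-1.48) and LINC02889 at 34.1 and 15.5 (-1.28).

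A higher level past 2-fold was measured by the probe used for 3 LINC RNAs in PC3-shESS2 cells. LINC01116, which lies near the HOXD cluster and has been studied in several cancers, read 526 and 1690, 2.91-fold higher (log2 ratio 1.54, error 0.20). LINC00665 read 13.5 and 44.5 (1.58, error 0.31) and LINC00926 read 13.5 and 31.7 (1.09, error 0.31). The last 2 were barely above background in PC3-shC cells.

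In all, ESS2 knockdown in PC3 left 3 of the 346 LINC RNAs higher and 12 lower by more than 2-fold. Over all 14709 genes 2.57% were higher and 2.79% lower by that measure, and the LINC RNAs had 0.867% and 3.47%. The median log2 ratio was -0.084 for the LINC RNAs and -0.066 for all genes. With normexp background correction, which pulls dim signals together, 1 LINC RNA was higher and 5 were lower, and with the authors' scaled values 6 were higher and 9 lower. Over 437 single probes 11 were higher and 13 lower, so the excess of lower ones depended on the probe rule. Among the higher were second probes of LINC02614 (1.39) and LINC01547 (1.36), for which the probe used gave 0.999 and 0.89. LINC00869, LINC00540, LINC03026, LINC00626, LINC01793 and LINC01116 were past 2-fold in PC3 under every one of 9 alternative settings, and LINC01116 kept log2 ratios between 1.42 and 1.63. Several of these settings mostly return the same probe and scaling.

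In DU145 cells the LINC RNAs past 2-fold were dimmer than those in PC3. LINC01389, which overlaps the forkhead gene FOXE3 and starts within 1 kb of FOXD2, read 45.7 in DU145-shC and 13.1 in DU145-shESS2 cells, 3.59-fold lower (log2 ratio -1.84, error 0.31). LINC00163 read 30.5 and 9.34 (-1.75, error 0.34), and LINC02709 read 53.1 and 19 (-1.52, error 0.27). These DU145-shESS2 values lay near the lowest signal that was well above background on that array, 8.15. LINC00629 read 93.9 and 35.1 (-1.46), LINC00954 read 28.3 and 11.0 (-1.40), and LINC01607 read 67.3 and 26.2 (-1.40). LINC00471 read 28.4 and 13.4 (-1.12), LINC01271 read 68.5 and 32.4 (-1.12), LINC01711 read 35.3 and 17 (-1.09), and LINC00882 read 70.6 and 36.0 (-1.01). LINC00632 was the only LINC RNA more than 2-fold higher, at 17.3 and 37.4 (1.07, error 0.28).

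Thus 1 LINC RNA was higher and 10 were lower by more than 2-fold in DU145-shESS2 cells, against 1.38% and 1.56% of all genes (203 and 230 of 14709). As shares of the 346 these were 0.289% and 2.89%. All 11 had a DU145-shC signal under 100, between 17.3 and 93.9, whereas in PC3 4 of 15 had a control signal under 100. With normexp background correction none of the 11 stayed past 2-fold, and the lowest log2 ratio of the named ones was then that of LINC00629, at -0.88. Under each of the other 8 settings the 9 named ones, which leave out LINC01711 and LINC00882, stayed past it. Keeping outliers, looser filters and the older annotation mostly return the same probe and scaling. Median scaling and the authors' values shift every ratio of a line by a constant. These settings therefore say little about dim signals.

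**Figure D1:**
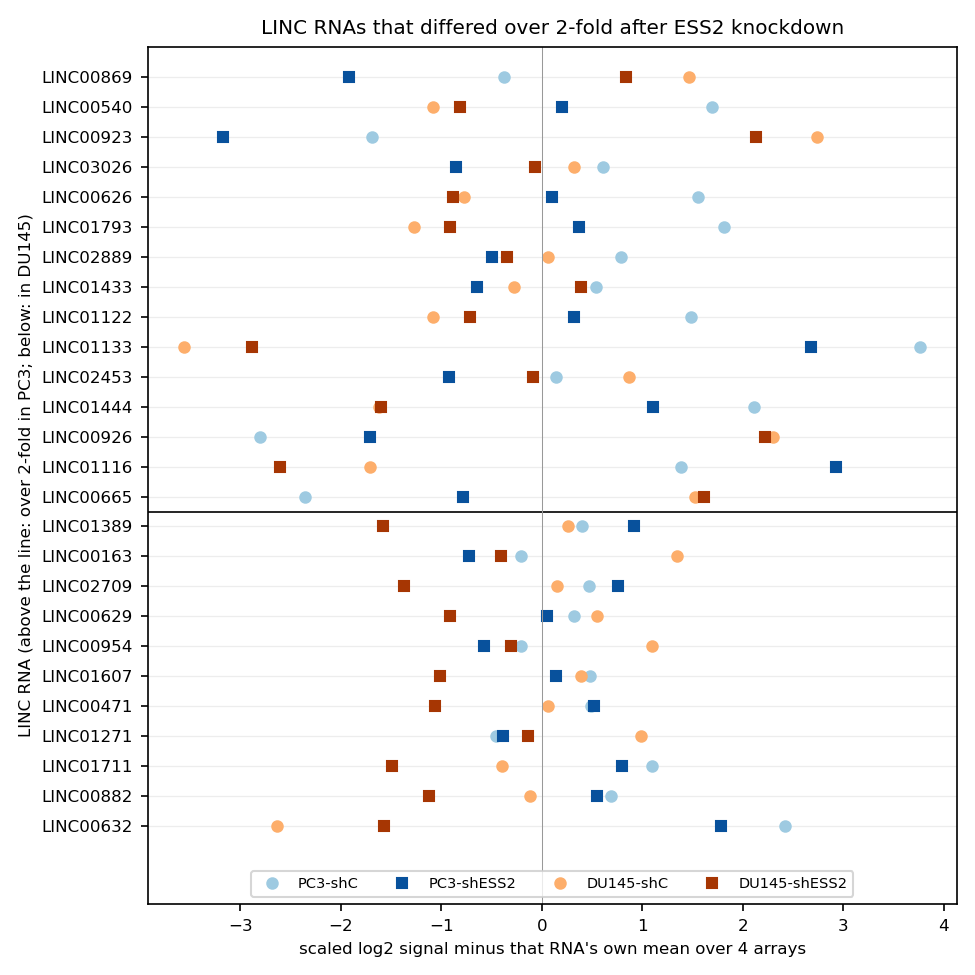
Scaled log2 signal on each of the 4 arrays (horizontal axis) for the 26 LINC RNAs that differed more than 2-fold between shESS2 and shC cells, each minus its own mean over the 4 arrays. Circles are control and squares shESS2 arrays, blue for PC3 and orange for DU145. The 15 RNAs above the line differed in PC3 and the 11 below it in DU145. For LINC01133, LINC00632 and LINC00926, among others, the gap between the lines is wider than that between circle and square.

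No LINC RNA was past 2-fold in both lines. Of all 14709 genes 54 were so the same way (0.367%), 26 lower and 28 higher, and 29 in opposite directions. At such shares 0 of 346 is no result about the LINC RNAs. The 26 LINC RNAs past 2-fold were thus 15 in PC3 and 11 in DU145, and 320 were under 2-fold in both. The closest to a shared difference was LINC02453, which read 126 and 66.3 in PC3 (-1.07) and 168 and 88.7 in DU145 (-0.96). LINC00239 read 535 and 316 in PC3 (-0.90) and 116 and 62.1 in DU145 (-0.94). LINC01315, LINC01703, LINC00869 and LINC00923 were also past 1.5-fold in both lines. All 6 were lower (1.73% of the 346), and over all genes 1.39% were lower and 1.14% higher by that measure. Across the 346 LINC RNAs the log2 ratios of the lines, which share no array, had a Pearson r of -0.049 (n = 346 LINC RNAs, which are not independent replicates), against 0.15 over all 14709 genes. Of the 346, 136 were lower in both lines (39.3%), 46 higher in both (13.3%) and 164 of opposite sign (47.4%). Over all genes these shares were 34%, 23.2% and 42.7%.

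**Figure D2:**
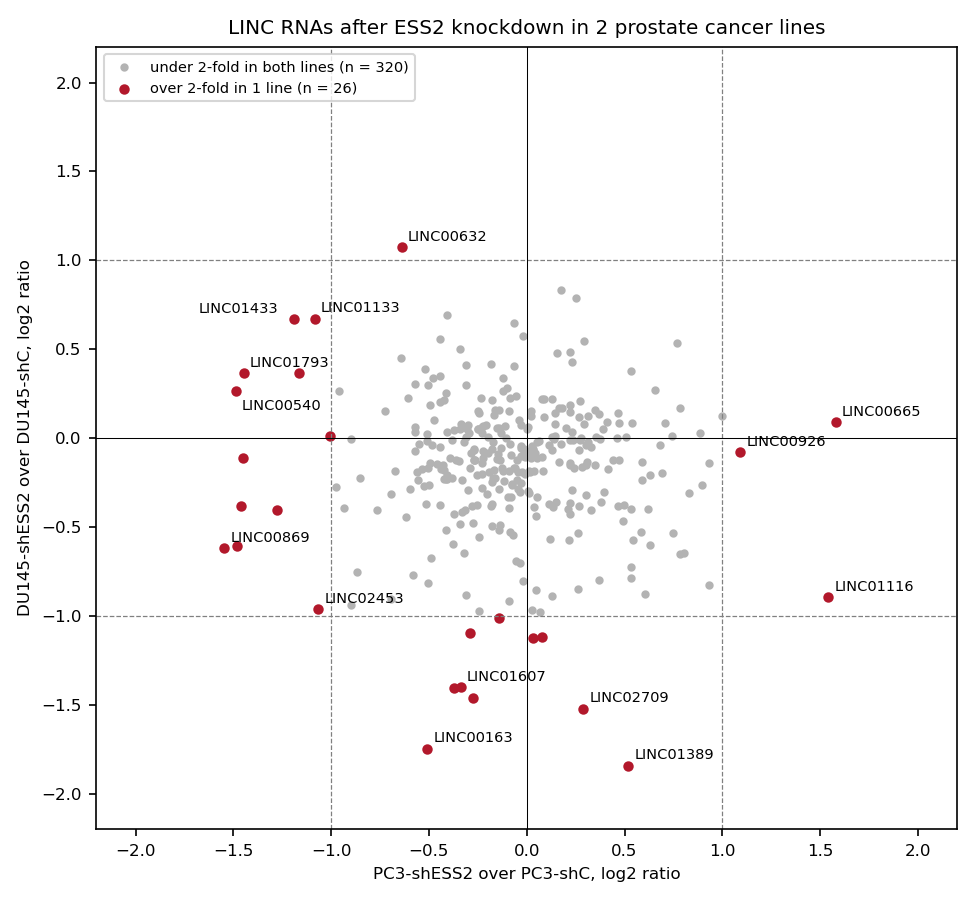
Each point is 1 of the 346 LINC RNAs, with its log2 ratio of PC3-shESS2 over PC3-shC on the horizontal and of DU145-shESS2 over DU145-shC on the vertical axis; dashed lines mark 2-fold. The 26 red points lie past 2-fold in 1 line only, and no point lies beyond the dashed lines in both directions at once.

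A knockdown effect common to PC3 and DU145 was tested with limma, in a model that held a term for knockdown and one for line and left 1 residual degree of freedom. The spread it measures is the disagreement of the knockdown ratios between the lines, moderated over all genes. The model called 0 of 14709 genes and 0 of the 346 LINC RNAs at an adjusted p of 0.05. ESS2 itself, lower in both lines, had a limma adjusted p of 0.65. The 0 called therefore does not show that no shared difference exists. At an unadjusted p under 0.05 there were 1125 genes and 20 LINC RNAs, 5.78% of them against 7.65% of all genes, and 19 of the 20 were lower. Of the 1125 genes 625 were lower, as were 82 of the 101 other long noncoding RNAs at that p. LINC02453 had the smallest p (log2 effect -1.01, SE 0.17, limma adjusted p = 0.65), followed by LINC00239 (-0.92, SE 0.17, limma adjusted p = 0.65). LINC00942 was the 1 higher, with 12.2 and 22.9 in PC3 and 48 and 71.5 in DU145 cells.

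Some LINC RNAs differed in opposite directions in the lines. LINC01116, higher in PC3 (1.54), read 49.7 and 27.5 in DU145, a log2 ratio of -0.89. LINC01133 was lower in PC3 (-1.08) and read 12.7 and 20.8 in DU145 (0.67). LINC00632 read 716 and 507 in PC3 (-0.64), opposite in sign to its ratio in DU145. All 3 read 507 or more in PC3 and 49.7 or less in DU145 cells, and the difference between the lines was not tested, as each knockdown ratio rests on 2 arrays.

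Several probes of 1 LINC RNA served as a check within the arrays. Of 62 LINC RNAs with more than 1 probe above background on all 4 arrays, all probes had the same sign in 38 in PC3 and in 44 in DU145. Of those past 2-fold by the probe used, 5 in PC3 had several such probes, and all probes were past 2-fold in 1 of them. In DU145 this was 1 of 3, and between the control lines 15 of 22. A second probe of LINC02709 gave -0.87 in DU145. The 3 such probes of LINC01116 gave 1.36, 1.36 and 1.54 in PC3 and -0.40, -0.80 and -0.89 in DU145, and another probe, dim on 1 array, gave 1.44 and -1.83. LINC00869 had -1.68, -1.55 and -0.59 in PC3, the last from a probe that read 82.5 or less on every array, and -0.55, -0.62 and 0.34 in DU145. A second probe of LINC01133, above background in PC3 alone, gave -1.21 there. The probes of LINC00665 disagreed, since the one used gave 1.58 in PC3 and another, read at 21.8 and 19.8, gave -0.28.

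LINC-PINT was under 2-fold by the probe the rule took but not by others. That probe read 111 and 163 in PC3 (log2 ratio 0.41) and 1260 and 1150 in DU145 cells (-0.17). The other 3 probes above background on all 4 arrays gave 2.11, 1.02 and 0.70 in PC3, and 3 more that were dim on 1 array gave 1.63, 1.57 and 0.74. All 7 probes were thus higher in PC3-shESS2 cells, while in DU145 they ranged from -0.33 to 0.42.

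As a class, the LINC RNAs had a lower median ratio than protein-coding genes in DU145-shESS2 cells. Their median log2 ratio there was -0.12, against -0.026 for all genes, -0.014 for 12664 protein-coding genes and -0.14 for 1135 other long noncoding RNAs. Of the LINC RNAs 67.1% had a negative ratio, against 53.4% of all genes and 68.6% of the other long noncoding RNAs. The median was negative from the lowest to the highest of 5 signal bins, with medians of -0.086, -0.12, -0.18, -0.14 and -0.12 for 209, 80, 28, 19 and 10 LINC RNAs. The median of the LINC RNAs differed from that of all genes by -0.018 in PC3 and by -0.095 in DU145. With quantile normalization these gaps were -0.089 and -0.10, with normexp correction -0.032 and -0.040, and with no filter on dim genes -0.0075 and -0.027. Each describes 2 arrays, with no test.

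**Figure D3:**
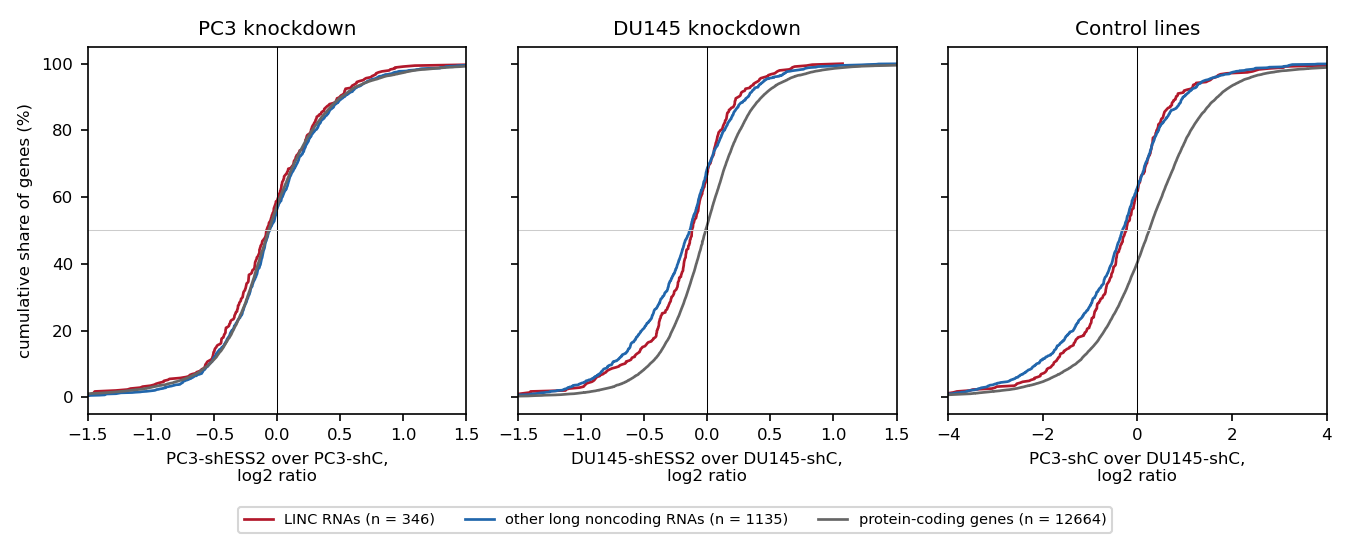
Cumulative share of genes (vertical axis, in percent) by log2 ratio (horizontal axis) for 346 LINC RNAs, 1135 other long noncoding RNAs and 12664 protein-coding genes, in PC3 knockdown, DU145 knockdown and the comparison of the control lines. The 3 curves lie close together in PC3 knockdown, and in the other panels both noncoding curves lie to the left of the protein-coding one.

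More LINC RNAs were past 2-fold between the control lines (103, or 29.8%) than with the knockdown in PC3 (15, or 4.34%) or DU145 (11, or 3.18%). The same order held over all genes, at 37.7%, 5.36% and 2.94%. LINC01133, reported to bind the splicing factor SRSF6, read 2520 in PC3-shC and 12.7 in DU145-shC cells, 160-fold higher in PC3. LINC00632 read 716 and 17.3, 33.4-fold higher, and LINC01444 read 584 and 35.5, 13.3-fold higher. LINC01116, LINC01793, LINC00540, LINC01122 and LINC00857 were 5.65 to 8.53-fold higher in PC3-shC cells by the probe used. A second probe of LINC01122 read 236 and 175, a log2 ratio of 0.12 against 2.57 for the one used, and a second one of LINC00857 gave 1.56 against 2.50. In the other direction LINC00926 read 13.5 and 372, 34.2-fold lower in PC3, LINC03112 read 15.5 and 359, 28.7-fold lower, and LINC00923 read 46.9 and 812, 21.5-fold lower. LINC-PINT read 111 and 1260 (14.1-fold lower), and LINC02615, LINC00665, LINC02332 and LINC00342 were 11.1 to 16.1-fold lower. A second probe of LINC02332 gave a log2 ratio of -1.76 against -3.54. The other 3 probes of LINC-PINT above background on all 4 arrays gave -4.58, -3.91 and -1.04 against -3.82. With normexp correction these folds were smaller, at 27.4 for LINC01133, 8.36 for LINC00632, 7.36 for LINC00926, 6.14 for LINC03112 and 3.26 to 11.0 for the other 12.

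The limma line effect over all 4 arrays called 136 of the 346 LINC RNAs (39.3%), 42 of them higher and 94 lower in PC3. Over all genes 30.8% were called higher and 22% lower, so the LINC RNAs had the smaller share higher and the larger share lower. LINC01133 had a log2 effect of 6.44 (SE 0.46, limma adjusted p = 0.0027) and LINC00926 of -4.51 (SE 0.33, adjusted p = 0.0028). All 16 of the LINC RNAs named for the line difference had limma adjusted p-values between 0.0019 and 0.028. They were chosen by the ratio of the control arrays, which are part of this fit, so these p-values are no separate support. Slide, Feature Extraction version and scan coincide with the line, so the line and the slide cannot be told apart. The p-values set the line difference against the disagreement of the knockdown ratios between the lines, not against replicate cultures.

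By the ratio of the control arrays alone, 28 LINC RNAs were more than 2-fold higher and 75 more than 2-fold lower in PC3-shC than in DU145-shC cells, against 21.7% and 16% of all genes. These were 8.09% and 21.7% of the LINC RNAs. The split depended on the scaling, with 55 higher and 50 lower after median scaling, 15 and 40 with normexp correction and 20 and 125 with the authors' values. The median log2 ratio was -0.24 for the LINC RNAs and 0.17 for all genes, a gap of -0.40 that was -0.057 after quantile normalization and -0.033 with normexp correction. Of the 28 and 75, 22 (78.6%) and 47 (62.7%) were also past 2-fold the same way between PC3-shESS2 and DU145-shESS2 cells, a pair of arrays that shares none with the first. Over all genes 2532 of 3193 higher ones (79.3%) and 1804 of 2350 lower ones (76.8%) were so. Over the 346 the ratios of the 2 pairs had a Pearson r of 0.87, and over all genes 0.90. Among the named ones, LINC01116 stood at 3.09 in the control pair and 5.53 in the shESS2 pair, and LINC00857 at 2.50 and 2.49.

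**Figure D4:**
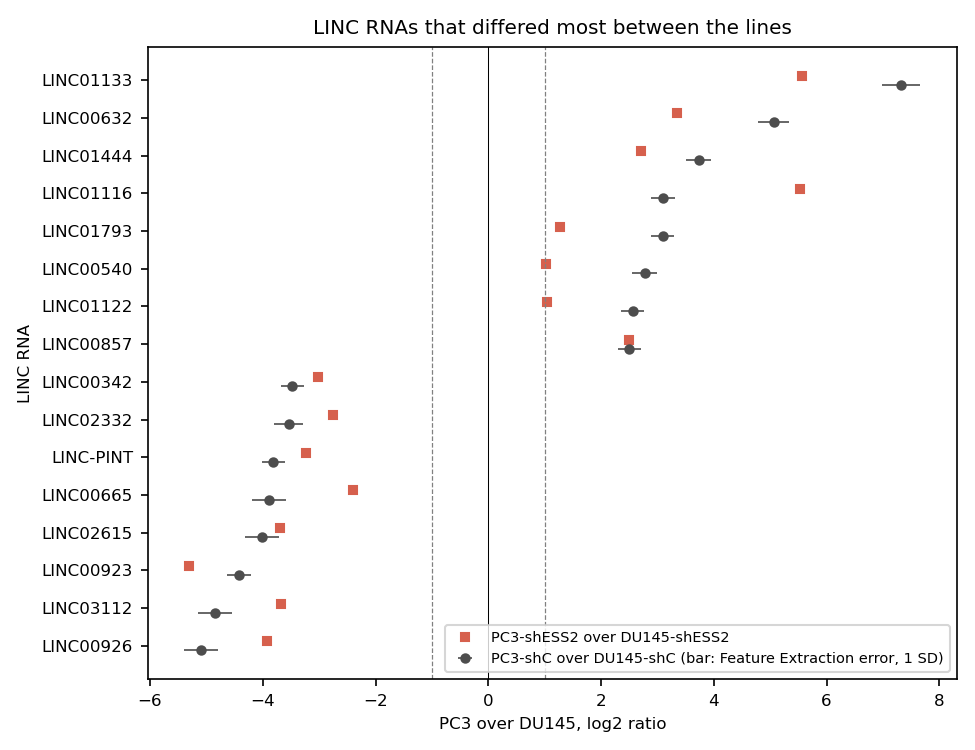
Log2 ratio of PC3 over DU145 (horizontal axis) for the 8 LINC RNAs with the highest and the 8 with the lowest ratio between the control arrays. Grey circles are the control pair with the Feature Extraction error of 1 SD, red squares the shESS2 pair, and dashed lines mark 2-fold; all 16 keep their side of 0 in the shESS2 pair.

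Of 22 LINC RNAs listed for their place in the cancer literature, 14 were among the 346, 5 were on the array and dim on at least 2 arrays, and 3 were not matched to a probe. LINC00473, LINC00511 and LINC00261 were dim on all 4 arrays, LINC00844, an androgen-regulated RNA, was above background on 1, and LINC00839 on 2. LINC00963 read 2220 and 1880 in PC3 (log2 ratio -0.38) and 1080 and 1100 in DU145 (-0.01). LINC00467 read 2800 and 3700 in PC3 (0.26) and 2240 and 1590 in DU145 (-0.54), and LINC00941 read 1200, 1330, 719 and 601. By the probe used, none of these 3 differed by 2-fold with the knockdown. Another probe of LINC00963, above background on all 4 arrays, read 266 and 630 in PC3 (1.10), and another of LINC00941 read 51.1 and 24.7 in DU145 (-1.09). LINC00673 read 1290 and 928 in PC3 (-0.62) and 308 and 233 in DU145 (-0.44). Of its 6 probes above background on all 4 arrays, 5 were lower in both lines and 1, read at 12.9 to 23.9, was higher in both (0.46 and 0.24). LINC00460 (53.6 and 30.4, -0.96) and LINC01503 (134 and 79.3, -0.90) came close to 2-fold in PC3 only, with 0.27 and -0.01 in DU145, and the other probes of LINC00460 gave -0.69 and 0.05 in PC3. LINC-ROR stayed between 15.6 and 27.8 on the 4 arrays, LINC00662 between 274 and 431, LINC00958 between 54.8 and 64.6, and LINC01270 read 109, 92.2, 310 and 273. Of the 14, LINC01116, LINC01133 and LINC00665 were past 2-fold with the knockdown by the probe used, all in PC3. In PC3 4.34% of the 346 and 5.36% of all genes were so. The list was made with earlier results of these data known, so its share is no result about these RNAs.

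The LINC RNAs were compared with 40 long noncoding RNAs that carry other names. Of these, 39 were matched and 26 were well above background on all 4 arrays, with 0 higher and 1 lower by more than 2-fold in PC3 and 0 of either in DU145. The 1 was LUCAT1, at 204 and 30.3 in PC3 (-2.89) and 579 and 1010 in DU145 (0.76). NRAD1, which was formerly named LINC00284 and is dim in DU145 cells, read 1310 in PC3-shC and 13.7 in PC3-shESS2 cells (-6.72), a larger difference than that of any of the 346. Between the control lines 4 of the 26 were more than 2-fold higher in PC3 and 6 lower. SNHG16, DANCR, TP53TG1 and MIR17HG were the higher ones, with log2 ratios of 1.09, 1.14, 1.02 and 1.26. Of the lower ones, the nuclear RNAs MALAT1 (2270 in PC3-shC and 19700 in DU145-shC) and NEAT1 (2990 and 21600) are examples.

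The place of the LINC RNAs among protein-coding genes was taken from the RefSeq table. Of the 346, 29 (8.38%) overlapped a protein-coding gene of another name, against 39 of the 1008 (3.87%) that were dim on all arrays, and the median distance to the nearest one was 27.0 kb against 85.8 kb. A divergent protein-coding start within 1 kb was found for 9 of 251 with a promoter entry (3.59%) and for 4 of 699 of the dim ones (0.572%). The ratio of a LINC RNA and that of its nearest measured neighbour were weakly related over 215 pairs, with a Pearson r of 0.11 in PC3, 0.22 in DU145 and 0.019 between the control lines. LINC01607 and HEY1, a repressor induced by Notch signalling, were the 1 pair past 2-fold the same way with the knockdown. In DU145 LINC01607 had a log2 ratio of -1.40 and HEY1, read at 80.2 and 30.2, of -1.45. In PC3 HEY1 read 513 and 198 (-1.51), while LINC01607 read 88.7 and 77.4 (-0.34). LINC00857 lies beside ANXA11, a gene of the annexin family, and their starts are 1.90 kb apart on opposite strands. LINC00857 was 5.65-fold higher in PC3-shC than in DU145-shC cells, and ANXA11 read 26900 and 4270 (log2 ratio 2.34).

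The LINC RNAs had promoters between those of the dim LINC genes and those of protein-coding genes in composition. The median G and C content was 54.3% for 251 of the 346, 45.7% for 699 LINC RNAs dim on all arrays and 65% for 10390 protein-coding genes above background on all 4. The medians of CpG per 100 bases were 2.67, 1 and 8.67 in the same order. Over 5 CpG per 100 bases were found in 33.5% of the promoters of the 346, as in LINC01116, LINC00869 and LINC01389, in 9.3% of the dim ones and in 79.1% of the protein-coding ones. The TATA box, searched as TATAAA on both strands, was in 8.76% of the windows of the 346, 18.5% of the dim LINC RNAs and 12% of all 27305 windows. The CCAAT box was in 35.5%, 35.2% and 35.7%, and the AP-1 motif TGANTCA in 10.4%, 14.2% and 7.76%. The cyclic AMP response element TGACGTCA was in 0.797%, 0.715% and 1.98%, the E-box CACGTG in 7.57%, 4.58% and 7.43%, and an interferon response motif in 5.18%, 4.43% and 3.65%. An NF-κB motif was in 0 of the 251 windows and in 0.194% of all windows. For the LINC RNAs past 2-fold with the knockdown, 21 had a promoter entry, with a median G and C content of 50%.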

How the data were processed

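Total RNA from 4 cell populations was hybridized to 1 array each. Per the file headers, the authors ran Agilent Feature Extraction 12.1.0.3 (PC3) and 12.0.3.1 (DU145), and the deposited processed signal is an intensity with its background subtracted, unscaled between arrays. The deposited value table equals that intensity times 1 constant per array. The file headers also give flags, as other columns, for spots well above background, saturated (0) or outlying.

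From the intensity, log2 values were taken, each array's 75th percentile over non-control spots (263, 290, 212 and 218) was subtracted, outlier spots were left out and spots of 1 probe averaged. On the 4 arrays 50.8 to 52.6% of non-control spots were well above background. Of 58201 probes, 35076 were named by matching accessions to RefSeq (GRCh38.p14), with the newer annotation release first; 346 LINC symbols met the rule. Ratios rest on 1 array per condition. Their errors are the Feature Extraction error (median 0.22 on the log2 ratio) and the SD between 10 spots of 1 probe (median 0.082 to 0.084), and cover the spot only. limma 3.58.1 in R 4.3.3 was fitted to the 14709 genes well above background on all 4 arrays (knockdown plus line, Benjamini-Hochberg at 0.05), after tests on simulated data. Python 3.11.15 was used otherwise. The genes named are the 8 highest and 8 lowest in each comparison, the brightest 8, those just inside and outside the detection limit, 22 LINC RNAs known from cancer, and neighbours; 40 other long noncoding RNAs, 7 promoter motifs and the markers were also listed. LINC01711, LINC00882, LINC00239, LINC01315, LINC01703 and LINC00942 were named after their values were seen. The LINC RNAs and these lists were chosen with earlier results of these data known. Alternatives were median scaling, quantile normalization, normexp with an offset of 50 (on the median spot signal), the authors' values, the mean of probes, single probes, outliers kept, other detection filters, the older annotation release and, for limma, the other factor left out and an intensity trend. Some of the listed markers are not reported here. No array sequences were used here.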

Additional observations from a re-analysis of the deposited data

Results flagged for a closer look

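For 5 LINC RNAs the log2 ratio of shESS2 over shC was past 2-fold in 1 cell line and past 0.5 in the opposite direction in the other. Each ratio is from 1 pair of arrays, and the difference between the lines was not tested. These were 1.45% of the 346, and over all genes 130 of 14709 (0.884%) had such a pair of ratios. LINC01116 had 1.54 in PC3 and -0.89 in DU145 cells. LINC01133 had -1.08 and 0.67, and LINC00632 had -0.64 and 1.07. These 3 were all dimmer than 50 on both DU145 arrays. LINC01389 had 0.52 in PC3 and -1.84 in DU145 cells. LINC01433 had -1.19 and 0.67, with signals of 221 and 107 in PC3 and 101 and 165 in DU145 cells. With normexp background correction none of the 5 had such a pair of ratios (54 of all genes did), the values being 1.44 and -0.40 for LINC01116, -0.94 and 0.16 for LINC01133, -0.43 and 0.31 for LINC00632, 0.32 and -0.54 for LINC01389, and -0.70 and 0.46 for LINC01433.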

How the results depend on the processing

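The labels give no replicate numbers, so no replicate block was fitted. The line term of the limma model set shESS2 against shC cells within each line, and leaving it out took the genes at an unadjusted p under 0.05 for the knockdown from 1125 to 20, with 0 called in both. With an array left out this model has no residual degree of freedom, so none was. In PC3, 3 LINC RNAs were higher and 12 lower by more than 2-fold. The higher count was 6 with the authors' values, 5 with the mean of probes and 1 with normexp correction, where the lower count was 5. Over single probes 11 were higher and 13 lower. In DU145 (1 and 10) normexp gave 0 and 0, and single probes gave 2 higher. Between the control lines (28 and 75) median scaling gave 55 higher, normexp 15 and 40, and the authors' values 125 lower. Requiring 1 of the 2 arrays above background gave 25 and 28 in PC3, 16 and 36 in DU145 and 75 and 155 between the lines, and no filter gave 102 and 87, 88 and 110, and 191 and 259; these settings test 511 to 571 and 1641 LINC RNAs. The gap between the LINC and all-gene medians between the lines was -0.40, and was -0.057 with quantile normalization, -0.033 with normexp and -0.078 with no filter. In PC3 it was -0.018, and -0.089 with quantile normalization, -0.032 with normexp, -0.011 with the mean of probes, -0.0022 with the filter on 1 of 2 arrays and -0.0075 with no filter. In DU145 it was -0.095, and -0.040 with normexp and -0.027 with no filter. The cause of these movements was not tested, beyond the added probes and genes that the filters let in. limma called 0 genes for the knockdown under all 11 alternatives, with 20 to 1314 genes at an unadjusted p under 0.05. For the line it called 136 LINC RNAs and 7758 genes, 234 LINC RNAs with the filter on 2 arrays and 4971 genes with no filter, and stayed within 1.5 times otherwise. Of the ratios past 2-fold of the named LINC RNAs, none changed sign under the 9 alternatives run for each RNA, which leave out single probes. By single probes LINC00665 went from 1.58 to -0.28 in PC3, and LINC00673 from 1.76 to -0.018 between the control lines. Of 22 LINC RNAs past 2-fold between the control lines with several probes, 19 had the same sign by all. Signal near background limits the dim LINC RNAs.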
